A study of Homo sapiens with 6 samples.

Results

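Hepatocyte growth factor (HGF), its receptor MET, the docking protein GAB1, the proteases HGFAC, HPN and ST14 and the protease inhibitors SPINT1 and SPINT2 were followed in PANC1OR and PANC1 cells. These 8 genes were taken by symbol from the 58735 gene rows of the deposited count table, where each symbol has 1 row. The group was put together after the HGF difference between the lines had been seen, so the members' differences between the lines are given as a description and without p-values. PANC1OR is a subline of PANC1 that was selected by culture in the platinum drug oxaliplatin at stepwise higher concentrations and that kept growing stably without chemotherapy. PANC1 is an established human line of pancreatic ductal carcinoma, and its untreated cultures are the other group. Messenger RNA of 3 cultures of each line was sequenced. PANC1OR is 1 selected line, so the spread between libraries is that between cultures of 1 resistant and 1 parental line. The sources used here do not give the drug concentrations or say whether drug was present at harvest.

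HGF is a secreted growth factor, also called scatter factor, that loosens epithelial cells from each other and makes them move. In tissue it comes mainly from fibroblasts and other stromal cells, while MET, its receptor tyrosine kinase, sits on epithelial cells. HGF is released as an inactive precursor that binds MET without activating it. The serine proteases HGF activator (HGFAC), hepsin (HPN) and matriptase (ST14) cut the precursor into its active form, and the Kunitz-type membrane proteins HAI-1 (SPINT1) and HAI-2 (SPINT2) block these proteases. Active MET recruits GAB1, on which further signalling proteins assemble. In pancreatic cancer, HGF is known mostly as a signal from the stroma to the tumour cell.

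HGF and MET both lie on chromosome 7. DNA from before their RefSeq transcription starts is shown because ligand and receptor both had higher CPM in every PANC1OR library. Each stretch is given 5′ to 3′ on the gene's own strand, from the RefSeq promoter table (GRCh38.p14), and holds no base of an annotated exon of the gene. The RefSeq start of MET is also the outermost start in GENCODE 44. The RefSeq start of HGF, at 81770047, lies 391 bases inside the gene's outermost GENCODE start, at 81770438. The HGF stretch thus precedes the RefSeq start but lies in an intron of 2 of the 11 GENCODE transcripts of the gene, which start farther out. It is 154 bases of the 250-base window at chr7:81770048-81770297 and leaves out the bases next to the RefSeq start. Capitals mark the letters GGGCGG, the core of a GC box bound by SP1.
HGF, minus strand, chr7:81770137-81770290: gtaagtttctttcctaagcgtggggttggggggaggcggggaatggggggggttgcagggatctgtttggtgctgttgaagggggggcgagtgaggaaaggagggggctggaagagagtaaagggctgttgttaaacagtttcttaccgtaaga
MET, plus strand, chr7:116671946-116672195: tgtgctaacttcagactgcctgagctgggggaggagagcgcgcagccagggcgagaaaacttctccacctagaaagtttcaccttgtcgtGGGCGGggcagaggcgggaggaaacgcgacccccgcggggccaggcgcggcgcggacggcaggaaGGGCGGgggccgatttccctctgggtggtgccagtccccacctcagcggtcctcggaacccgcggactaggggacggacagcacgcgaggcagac
The values that follow are for the full window of 250 bases before the RefSeq start, of which only a part is printed for HGF. The HGF window had 50% GC and 6 CpG dinucleotides, and the MET window had 68.4% GC and 24 CpG. The median over 35116 such windows was 58% GC and 11 CpG. GGGCGG, read on both strands, occurred 2 times in the MET window and 0 times in the HGF window, and 42.6% of all windows held it. The other motifs searched on both strands matched neither 250-base window. They were the AP-1 site (TGAGTCA), which 4.20% of all windows held, and the ETS core (CCGGAA), held by 14.5%. The hypoxia-inducible factor core (ACGTG) was in 18.5% of windows, and the MITF site (CACGTG), which includes it, in 6.34%. The C/EBP letters (TTGCNNAA) were in 9.05% of windows and the TATA box (TATAAA) in 10.7%. These are matches of letters and say nothing about binding.

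The libraries held 12623721 to 26394388 reads in PANC1OR and 10199268 to 15875431 reads in PANC1. Levels are CPM, reads scaled to a common library total after TMM adjustment, and genes with too few reads were left out of the fit, which tested 18751 genes. Of the 8 members, 5 were tested, and HGFAC, HPN and ST14 were not. PANC1OR replicate 3 stood apart from replicates 1 and 2 along GC content. The median log2 difference from those libraries was 1.33 for genes with more than 60% GC and -0.97 for genes with less than 40% GC. Of 8 duct epithelium markers KRT8 and KRT18 were at 429 and 315 CPM in PANC1OR and 484 and 338 CPM in PANC1, while CFTR had 0 reads in both lines. At an adjusted p under 0.05 in the fit, KRT19 and SOX9 fell in PANC1OR and none of these markers rose. EPCAM did not pass but was lower in every PANC1OR library, at 8.13 CPM against 14.1 CPM in PANC1. KRT7 and MUC1 did not pass either, at 1.82 and 20.3 CPM in PANC1OR and 0.747 and 25.4 CPM in PANC1.

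By the adjusted p of edgeR's quasi-likelihood fit over all genes, 4 of the 5 tested members were called, beside 17.8% of all tested genes in either direction. HGF, MET and SPINT1 were higher in PANC1OR, beside 10.3% of all tested genes. GAB1 was lower, beside 7.5%, and SPINT2 was not called. The libraries of the lines did not overlap for HGF, MET, SPINT1, GAB1 and the untested HGFAC. Among all tested genes the libraries of 36.5% did not overlap. Since the members were proposed from this same contrast, nothing is read from these counts. Without PANC1 replicate 3 only HGF and MET were called, and GAB1 also lost its call without PANC1 replicate 1 or PANC1OR replicate 1, as did SPINT1 without PANC1 replicate 2.

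**Figure D1:**
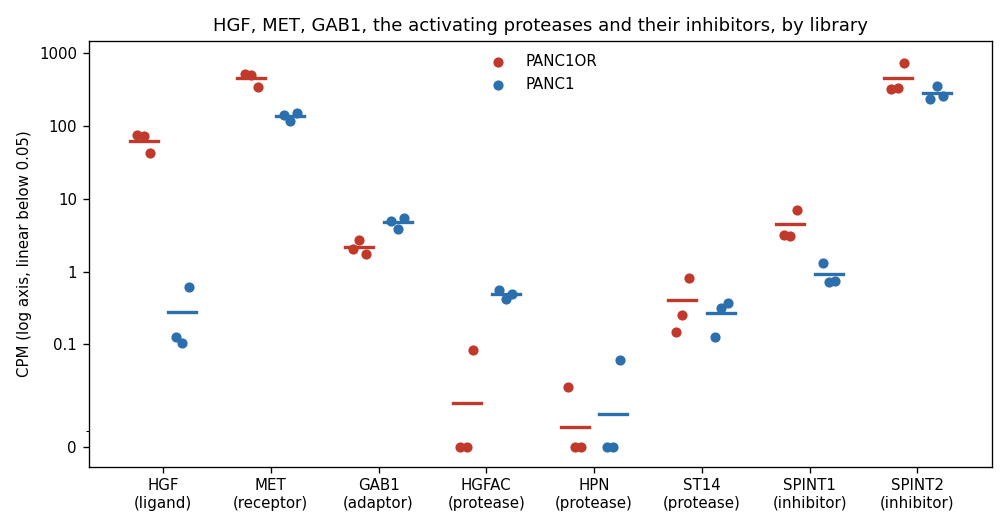
CPM of the 8 members in each library on a logarithmic axis that is linear below 0.05, with PANC1OR in red and PANC1 in blue, a point for each of 3 libraries and a bar for their mean. HGF lies between 42.4 and 75.4 CPM in PANC1OR and below 1 CPM in PANC1, MET is higher in each PANC1OR library, and the 3 proteases lie below 1 CPM in both lines.

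The ligand gene HGF (ENSG00000019991, chromosome 7 at 81699010 to 81770438) was at 75.4, 72.5 and 42.4 CPM in PANC1OR replicates 1 to 3, against 0.125, 0.104 and 0.612 CPM in PANC1 replicates 1 to 3. In reads this was 2017, 1161 and 514 in PANC1OR against 2, 1 and 10 in PANC1. Every PANC1OR library was far above every PANC1 library, and 10 of the 13 PANC1 reads came from replicate 3. The pooled reads gave a ratio of 217 between the lines, with an exact 95% counting interval of 127 to 408 that covers counting error only. The fitted log2 fold change was 7.67 ± 0.56 (SE). It was 8.99 without PANC1 replicate 3 and 7.86 without PANC1OR replicate 3. The counts are per gene, so full-length HGF and its truncated splice forms cannot be told apart. The same holds in bulk RNA for more cells with HGF and more HGF RNA per cell.

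Fibroblasts are the usual source of HGF, and their markers were therefore read beside it. The 10 fibroblast markers summed to 121 to 309 CPM in PANC1OR and 115 to 127 CPM in PANC1. COL1A1, which many carcinoma lines also express, made up most of this sum, at 172 CPM in PANC1OR and 87.3 CPM in PANC1 (adjusted p = 0.123). COL1A2, the partner chain of COL1A1 in fibroblast collagen, was at 0.0125 CPM in PANC1OR and 0.0348 CPM in PANC1. DCN, LUM and PDGFRA were each below 0.15 CPM in both lines. FAP had 0 reads in both lines, POSTN 0 reads in PANC1OR and LUM 0 reads in PANC1. Of the 4 tested markers 1 fell, THY1, and 0 rose. The other 3, COL1A1, COL3A1 and PDGFRB, did not pass the test but were higher in every PANC1OR library than in every PANC1 library. COL3A1, a fibrillar collagen gene, was at 5.43 CPM in PANC1OR and 3.06 CPM in PANC1 (adjusted p = 0.115). PDGFRB, a receptor gene of mesenchymal cells, was at 1.05 CPM in PANC1OR and 0.529 CPM in PANC1 (adjusted p = 0.169).

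The receptor gene MET (ENSG00000105976, chromosome 7 at 116672196 to 116798377) was at 521, 513 and 342 CPM in PANC1OR replicates 1 to 3, against 143, 117 and 149.8 CPM in PANC1. The lowest PANC1OR library was above the highest PANC1 library. The means were 459 ± 101 CPM in PANC1OR and 137 ± 17.6 CPM in PANC1 (SD, n = 3 each), and the log2 fold change was 1.75 ± 0.23 (SE). Without any 1 library it was between 1.63 and 1.91. MET rested on 26307 reads in PANC1OR and 5869 in PANC1, by far more than HGF in PANC1.

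GAB1 (ENSG00000109458, chromosome 4 at 143336876 to 143474565), the docking protein that carries the MET signal, went the other way. It was at 2.06, 2.69 and 1.73 CPM in PANC1OR and at 4.98, 3.86 and 5.44 CPM in PANC1. All PANC1OR libraries were below all PANC1 libraries. Its means were 2.16 ± 0.484 CPM in PANC1OR and 4.76 ± 0.812 CPM in PANC1 (SD, n = 3 each), a log2 fold change of -1.14 ± 0.28 (SE). It rested on 119 reads in PANC1OR and 206 in PANC1. GAB1 overlaps 2 unnamed genes on the other strand, and MIR3139 and RPSAP36 on its own strand. Whether reads of the other strand were kept apart is not known, because the strand setting of the counts is not given.

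The member proteases HGFAC, HPN and ST14 were nearly without reads in both lines. HGFAC (ENSG00000109758, chromosome 4 at 3441968 to 3449486), the plasma protease named for this reaction, had 0, 0 and 1 reads in PANC1OR replicates 1 to 3, against 9, 4 and 8 reads in PANC1. The reads scaled to library size gave 27.4-fold less in PANC1OR, with an exact 95% counting interval of 4.41 to 1135 that covers counting error only. It was 14.1-fold less without PANC1OR replicate 1. Without PANC1OR replicate 3, which held the single read, it was at least 7.13-fold less, with the 0 reads set to a floor of 3 reads over the group. Its direction was thus opposite to that of HGF, from a level of 0.489 ± 0.0713 CPM in PANC1 (SD, n = 3). HPN (ENSG00000105707, chromosome 19 at 35040506 to 35066573), which encodes the liver cell-surface protease hepsin, had 1 read in PANC1OR and 1 read in PANC1. ST14 (ENSG00000149418, chromosome 11 at 130159782 to 130210362), which encodes the epithelial protease matriptase, had 4, 4 and 10 reads in PANC1OR and 2, 3 and 6 reads in PANC1. The ST14 ratio was 1.25 with a counting interval of 0.560 to 2.93, so no difference was detectable at this depth.

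Of their inhibitors, SPINT1 was low and SPINT2 abundant. SPINT1 (ENSG00000166145, chromosome 15 at 40844018 to 40858207) was at 3.18, 3.12 and 7.10 CPM in PANC1OR, against 1.31, 0.731 and 0.734 CPM in PANC1. The groups did not overlap, and PANC1OR replicate 3 was the highest library. The log2 fold change was 2.22 ± 0.45 (SE), and 1.72 without that library. SPINT2 (ENSG00000167642, chromosome 19 at 38244035 to 38292615) was at 323, 331 and 727 CPM in PANC1OR, against 233, 352 and 261 CPM in PANC1. PANC1OR replicates 1 and 2 lay within the PANC1 range, and replicate 3 alone lay above it. The log2 fold change of 0.71 ± 0.35 (SE) went to 0.20 without PANC1OR replicate 3. SPINT1 overlaps its antisense partner SPINT1-AS1, and SPINT2 overlaps PPP1R14A, on the opposite strand. Whether their reads were kept apart is not known, because the strand setting is not given. SPINT2 also overlaps an unnamed gene on its own strand.

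Within PANC1OR the tested members split by GC content of the longest transcript. HGF, GAB1 and MET have 35.7%, 38.0% and 43.5% GC, and in replicate 3 their levels differed by -0.80, -0.44 and -0.60 in log2 from the mean of replicates 1 and 2. SPINT2 and SPINT1 have 55.6% and 60.4% GC, and there the differences were 1.15 and 1.17. These are the directions of the library-wide GC trend given above. When the GC trend of every library was taken up by offsets, the log2 fold changes were 7.57 for HGF, 1.71 for MET, -1.26 for GAB1, 2.12 for SPINT1 and 0.65 for SPINT2.

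**Figure D2:**
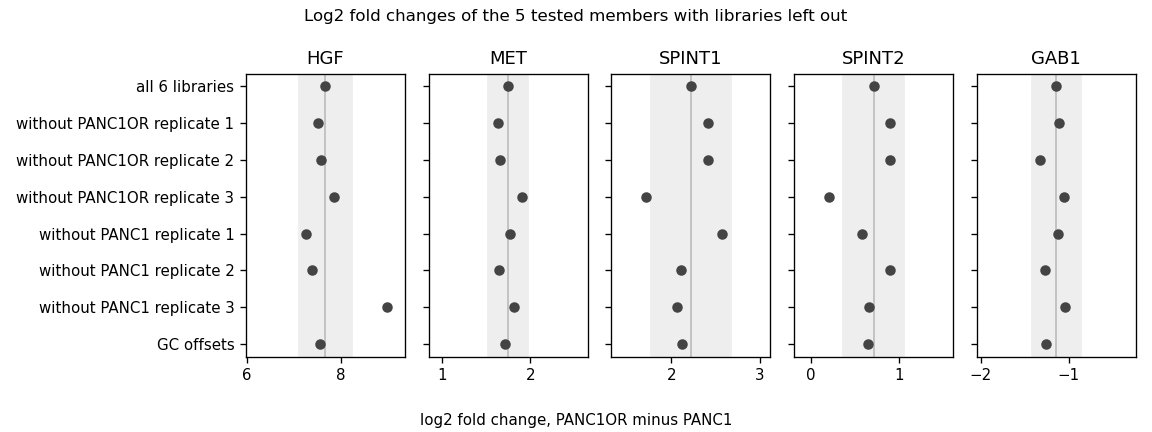
Log2 fold changes, PANC1OR minus PANC1, of the 5 tested members with all 6 libraries, without each library in turn and with offsets for GC content, where the grey band is 1 SE around the value with all libraries. HGF leaves the band only without PANC1 replicate 3 (8.99), and SPINT1 and SPINT2 leave it only without PANC1OR replicate 3 (1.72 and 0.20).

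To set the receptor and ligand beside others of their kind, CPM were divided by the length of all exons of the gene in kb. MET stood at 63.5 ± 14.0 CPM per kb in PANC1OR and 18.9 ± 2.43 CPM per kb in PANC1 (SD, n = 3 each). Among 58 receptor tyrosine kinase genes it ranked 3 in PANC1OR, with single libraries at rank 1 to 4, and 6 in PANC1. In PANC1OR its level did not differ beyond the spread from those of EPHA2 (73.7 ± 41.2 CPM per kb), EPHB6 (69.0 ± 42.1) and AXL (57.9 ± 20.9). These means and SDs include PANC1OR replicate 3, which stood apart along GC content and had the lowest MET level of that line. In PANC1, EPHA2 (98.5 ± 7.90 CPM per kb), AXL (54.6 ± 2.84), EGFR (45.1 ± 7.61) and EPHB4 (27.5 ± 1.62) were each above MET beyond the spread, while RYK (19.9 ± 0.489) was not. The order was read within each line and was not tested between lines.

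HGF stood at 6.50 ± 1.87 CPM per kb in PANC1OR and at 0.0287 ± 0.0294 CPM per kb in PANC1 (SD, n = 3 each). Among 61 genes of soluble ligands of receptor tyrosine kinases it ranked 9 in PANC1OR, with single libraries at rank 9 to 12. When the longest transcript gave the length it ranked 6 there, with single libraries at rank 5 to 8. In PANC1 it ranked 41, with single libraries at rank 36 to 42. The highest ligands of PANC1OR were EREG (31.8 ± 10.7 CPM per kb) and AREG (15.8 ± 3.49), both ligands of the EGF receptor, and VEGFB (22.3 ± 10.1), a relative of vascular endothelial growth factor. The neighbours of HGF in the PANC1OR order were PDGFC (7.50 ± 1.68), from which it did not differ beyond the spread, and NRG1 (4.26 ± 0.374). In PANC1 the highest ligands were CSF1 (70.7 ± 3.36), PDGFB (13.4 ± 1.14) and VEGFB (12.8 ± 3.33).

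**Figure D3:**
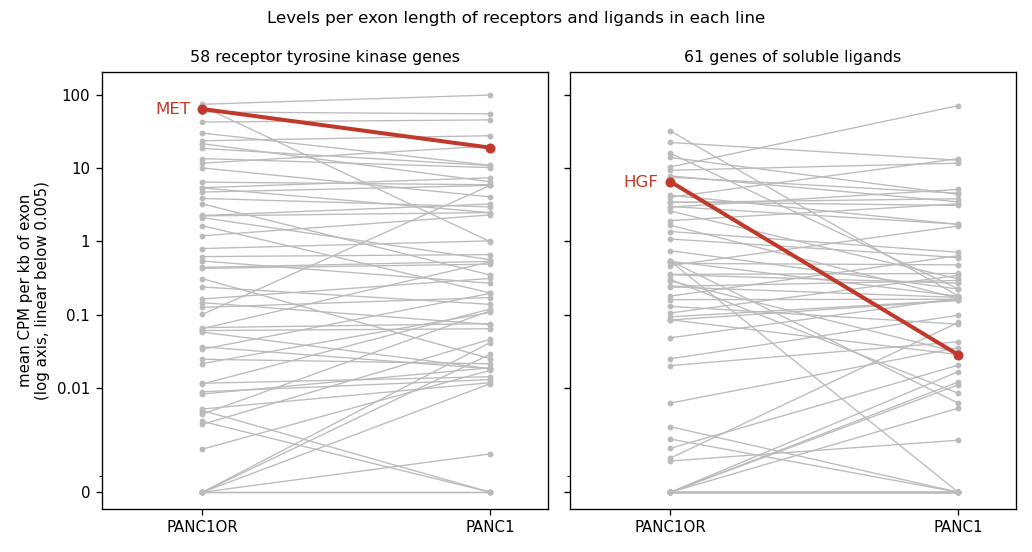
Mean CPM per kb of exon over 3 libraries in PANC1OR (left) and PANC1 (right) on a logarithmic axis that is linear below 0.005, with a grey line for each gene of 58 receptor tyrosine kinases and 61 soluble ligands. MET and HGF are drawn in red: MET is among the highest receptors in PANC1OR at 63.5, and HGF is at 6.50 in PANC1OR and 0.0287 in PANC1.

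The wider pathway was read from 7 lists of 109 genes, of which 78 were tested. Of these, 12 rose and 12 fell in PANC1OR in the quasi-likelihood test of edgeR, and 54 did not pass. The called share was 30.8%, beside 17.8% of all tested genes. The median log2 fold change was -0.03 over these 78 genes and 0.04 over all tested genes. Without PANC1OR replicate 3, 44 of 80 were called (55%), beside 44.1% of all tested genes in that fit. Without PANC1 replicate 1 it was 14 of 79 (17.7%), beside 9.86% of all genes. Without PANC1 replicate 3 it was also 14 of 79, beside 9.31%. The lists were chosen with earlier results of these data known, so their counts are given as a description. For the single lists below, the share over all tested genes is 17.8% with all libraries and 44.1% without PANC1OR replicate 3.

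Of the relatives of the pair, 1 of 3 tested genes rose. MST1R, which encodes RON, the receptor closest to MET, was at 52.6 ± 29.5 CPM in PANC1OR and 21.3 ± 1.68 CPM in PANC1 (SD, n = 3 each), and the log2 fold change was 1.301 ± 0.37 (SE; adjusted p = 0.0441). Its adjusted p reached 0.158 without 1 library, and the call was lost without PANC1 replicate 1, 2 or 3. MST1, the ligand of RON, stood at 0.92 ± 0.40 on the log2 scale (SE; adjusted p = 0.168). PLG, which encodes plasminogen, the protease to which HGF is related, stood at 0.87 ± 0.39 (SE; adjusted p = 0.185). Without PANC1OR replicate 3 it was called at 1.11 (adjusted p = 0.0147), and 2 of the 3 genes rose in that fit.

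Other serine proteases of the cell surface and surroundings mostly had too few reads, with 6 of 24 tested. PLAU, which encodes urokinase, a protease reported to cut pro-HGF, rose to 667 ± 136 CPM in PANC1OR, against 304 ± 10.6 CPM in PANC1 (log2 fold change 1.13 ± 0.20, SE; adjusted p = 0.00539). TMPRSS2, a transmembrane protease of the same family as hepsin and matriptase, fell to 0.494 ± 0.266 CPM in PANC1OR, against 3.66 ± 0.726 CPM in PANC1 (-2.84 ± 0.43, SE; adjusted p = 0.00285). Each was called without any 1 library. TMPRSS2 overlaps MX1, and PLAU overlaps C10orf55, on the opposite strand. F12, which encodes coagulation factor XII, and TMPRSS9 had log2 fold changes of 0.87 ± 0.69 and -0.30 ± 0.51 (SE; adjusted p = 0.459 and 0.759). Without PANC1OR replicate 3 the differences were -0.37 for F12 and -0.91 for TMPRSS9.

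Of 6 tested Kunitz-type and serpin inhibitors other than SPINT1 and SPINT2, 2 rose and 2 fell. TFPI2, an inhibitor of plasmin and related matrix proteases, fell to 0.0883 ± 0.0677 CPM in PANC1OR, against 2.81 ± 0.552 CPM in PANC1 (log2 fold change -5.08 ± 0.50, SE; adjusted p = 0.000311), and its log2 fold change was -5.68 without PANC1OR replicate 3. TFPI, the tissue factor pathway inhibitor, rose by 1.19 ± 0.29 on the log2 scale (SE; adjusted p = 0.0269), and lost the call without any 1 library other than PANC1OR replicate 3. APP, whose longer splice forms carry a Kunitz domain, rose by 0.83 ± 0.17 (SE; adjusted p = 0.0112), and lost the call without PANC1 replicate 1 or 3. SERPINE2, a thrombin and urokinase inhibitor below 1 CPM in both lines, was named after its value was seen (-1.76 ± 0.48, SE; adjusted p = 0.0374). It lost the call without any 1 library other than PANC1OR replicate 3. APLP2, a relative of APP, stood at -0.07 ± 0.17 (SE; adjusted p = 0.821).

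Of 29 adaptors and signalling proteins downstream of MET, all tested, 1 rose and 4 fell, close to the background of 17.8%. PIK3R1, which encodes the regulatory subunit of PI3 kinase that docks on GAB1, fell to 12.95 ± 3.21 CPM in PANC1OR, against 46.3 ± 5.22 CPM in PANC1 (log2 fold change -1.83 ± 0.25, SE; adjusted p = 0.0017). STAT3, a transcription factor that MET activates, fell to 224 ± 40.1 CPM in PANC1OR, against 489 ± 45.5 CPM in PANC1 (-1.13 ± 0.19, SE; adjusted p = 0.00528). SRC, a tyrosine kinase, rose by 1.56 ± 0.34 (SE; adjusted p = 0.0153) and lost the call without PANC1 replicate 1, 2 or 3. DOCK1, an activator of RAC, had -0.61 ± 0.16 (SE; adjusted p = 0.0352), and lost the call without PANC1OR replicate 1 or 2 or PANC1 replicate 1 or 3. MAP2K1, which encodes the kinase MEK1, was named after its value was seen (-0.72 ± 0.20, SE; adjusted p = 0.0389) and was called with all libraries and without PANC1OR replicate 3. In that last fit 4 genes of the list rose and 9 fell.

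Co-receptors and receptor partners of MET were called in 8 of 15 cases, 4 in each direction, beside 17.8% of all tested genes. The count was 6 of 15 without PANC1 replicate 1, 2 or 3. All tested genes were called at 9.86%, 12.2% and 9.31% in those fits. NRP1 and NRP2, the neuropilin co-receptors, moved apart. NRP1 rose to 271 ± 26.6 CPM in PANC1OR, against 72.7 ± 8.33 CPM in PANC1 (log2 fold change 1.90 ± 0.18, SE; adjusted p = 0.000303). NRP2 fell to 0.681 ± 0.208 CPM in PANC1OR, against 21.8 ± 2.17 CPM in PANC1 (-5.01 ± 0.30, SE; adjusted p = 3.62e-05). ERBB3, a kinase-poor receptor that MET can phosphorylate, rose to 19.1 ± 2.09 CPM in PANC1OR, against 2.33 ± 0.312 CPM in PANC1 (3.03 ± 0.24, SE; adjusted p = 0.000114). ICAM1, an adhesion molecule reported to stand in for CD44 at MET in mouse cells, rose by 1.88 ± 0.24 (SE; adjusted p = 0.00124). CD44, the hyaluronan receptor whose variant forms present HGF to MET, was named after its value was seen. It fell to 1566 ± 197 CPM in PANC1OR, against 3252 ± 126 CPM in PANC1 (-1.05 ± 0.18, SE; adjusted p = 0.0053), and its splice forms cannot be told apart in counts per gene. The calls of NRP1, NRP2, ERBB3, ICAM1 and CD44 held without any 1 library.

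Of 12 tested negative regulators of MET, 1 rose and 1 fell, and 10 did not pass. LRIG1, a membrane protein that lowers the amount of MET and other receptor kinases, fell to 1.92 ± 0.146 CPM in PANC1OR, against 5.21 ± 0.813 CPM in PANC1 (log2 fold change -1.44 ± 0.25, SE; adjusted p = 0.0055). PTPRJ, a receptor phosphatase that acts on MET, rose by 0.62 ± 0.17 (SE; adjusted p = 0.0430) and lost the call without any 1 library other than PANC1OR replicate 3. SH3KBP1, an adaptor of receptor uptake, and ADAM17, a protease that sheds receptor ectodomains, stood at -0.53 ± 0.19 and 0.56 ± 0.19 (SE; adjusted p = 0.0918 and 0.0895). Without PANC1OR replicate 3, 3 genes of the list rose and 4 fell.

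Of 7 tested transcription factors reported to act on MET or HGF, 2 rose. MITF, a factor of the melanocyte lineage known to act on MET there, rose to 106 ± 23.8 CPM in PANC1OR, against 6.15 ± 0.740 CPM in PANC1 (log2 fold change 4.09 ± 0.26, SE; adjusted p = 5.23e-05). CEBPB, a leucine zipper factor of inflammatory responses, rose to 67.2 ± 41.0 CPM in PANC1OR, against 10.5 ± 3.36 CPM in PANC1 (2.68 ± 0.45, SE; adjusted p = 0.00477). Both were called without any 1 library, and CEBPB had a log2 fold change of 2.06 without PANC1OR replicate 3. HIF1A, the oxygen-regulated factor, and ETS1 stood at -0.82 ± 0.28 and -0.38 ± 0.17 (SE; adjusted p = 0.0837 and 0.172), and without PANC1OR replicate 3 the list had 3 risen and 2 fallen genes.

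**Figure D4:**
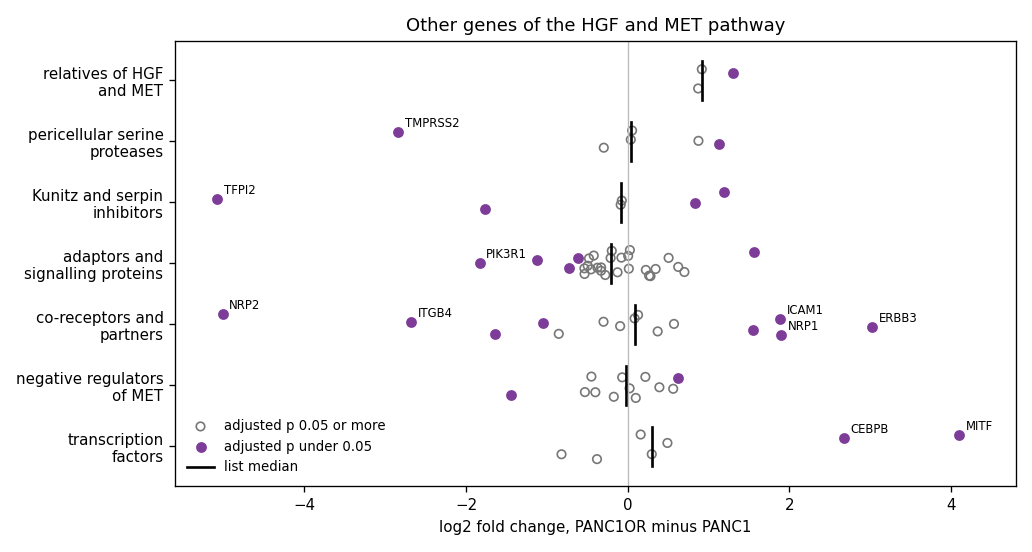
Log2 fold changes, PANC1OR minus PANC1, of the tested genes of 7 lists of the HGF and MET pathway, with filled points at an adjusted p under 0.05, open points above it and a bar for the list median. Called genes lie on both sides of 0, from TFPI2 at -5.08 to MITF at 4.09.

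The outermost GENCODE starts of HGF and MET are 34.9 Mb apart, and the genes around each were read for their own differences. Within 1 Mb of the start of HGF there were 2 tested protein-coding genes. CACNA2D1, a calcium channel subunit gene, rose to 169 ± 63.5 CPM in PANC1OR, against 25.6 ± 6.31 CPM in PANC1 (log2 fold change 2.72 ± 0.35, SE; adjusted p = 0.00124), and was called without any 1 library. SEMA3C, a secreted semaphorin gene, was at 405 ± 125 CPM in PANC1OR and 468 ± 42.5 CPM in PANC1 (-0.21 ± 0.26, SE; adjusted p = 0.652). Around MET, 5 protein-coding genes were tested. TES, a focal adhesion gene, rose by 1.09 ± 0.18 on the log2 scale (SE; adjusted p = 0.00483). ST7 and CAV1, the caveolin gene, stood at 0.71 ± 0.19 and -0.69 ± 0.20 (SE; adjusted p = 0.0351 and 0.0463). Both lost the call without any 1 library other than PANC1OR replicate 3. CAV2 and CAPZA2 stood at 0.17 ± 0.22 and 0.01 ± 0.31 (SE; adjusted p = 0.674 and 0.991), and CAPZA2 was called without PANC1OR replicate 3 (adjusted p = 0.0445).

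**Figure D5:**
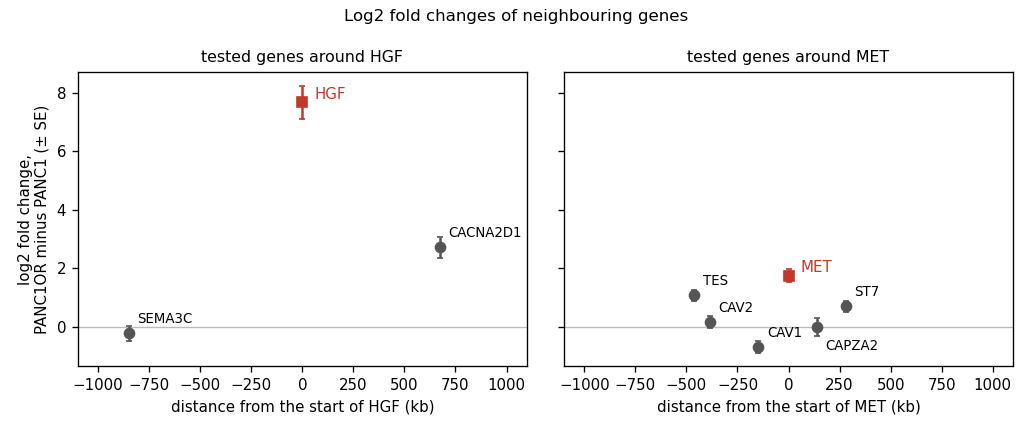
Log2 fold changes, PANC1OR minus PANC1, with their SE, of tested protein-coding genes against their distance in kb along the chromosome from the start of HGF (left) and MET (right). HGF at 7.67 stands above CACNA2D1 at 2.72 and SEMA3C at -0.21, and the genes around MET at 1.75 lie between -0.69 and 1.09.

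The genes most like HGF over the 6 libraries were found by Pearson correlation of log2 CPM with a mean of at least 1 CPM, given as a description, since any gene that differs strongly between the lines can score high. They were CADPS2 (0.9995), a gene of vesicle release, KCNT2 (0.999), a sodium-activated potassium channel gene, CPS1 (0.998), the urea cycle enzyme gene, TBC1D9 (0.998) and the pseudogene RPL17P39 (0.998), whose reads may come from near-identical copies. CADPS2 was at 12.9 ± 1.41 CPM in PANC1OR and 1.12 ± 0.410 CPM in PANC1 (SD, n = 3 each). Like HGF it was highest among the PANC1 libraries in replicate 3, which its choice by correlation with HGF favours. Of the other members, MET ranked 329 among 16475 genes (0.979) and SPINT1 ranked 1933 (0.860). GAB1 had a correlation of -0.87 with HGF.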

How the data were processed

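The authors deposited read counts per gene without normalization, 1 column per library. Per the submitters' processing notes and the labels, FastQC 0.11.5, cutadapt in Trim Galore 0.4.2, STAR 2.5 on GRCh38 and featureCounts of Subread 1.6.2 were used. Not given in the sources used here are the annotation release, the strand setting and the handling of multi-mapping reads. A further 5 columns held no values. Genes were filtered with filterByExpr of edgeR 4.0.16 (R 4.3.3), scaled with TMM and compared with its quasi-likelihood F test on 6 libraries without covariates. Calls used a Benjamini-Hochberg adjusted p under 0.05 over 18751 genes. Errors of fold changes are SE from the F statistic, and levels are mean ± SD. The fit was tested on simulated counts without a GC trend or a deviating library, so that test does not cover these features of the data. Exact counting intervals were at 95%. GENCODE 44 gave positions, exon length and GC. The likelihood ratio test named in the design text was an alternative, as were DESeq2 1.42.0, other scaling, no filter, GC offsets, a replicate block and left-out libraries. From each list the text names up to 4 genes of smallest p, among those averaging 1 CPM or more, and others where said. The members and lists were chosen with earlier results of these data known.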

Additional observations from a re-analysis of the deposited data

How the results depend on the processing

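The number of called genes changed with the libraries in the fit. Leaving out 1 library at a time gave 1821 to 8663 called genes against 3345 with all, 2 to 4 called members against 4, and 14 to 44 genes of the wider pathway against 24. GC offsets gave 7313 genes and 49 of the wider pathway. Replicate 2 of PANC1 and replicate 3 of PANC1OR deviated with GC from the other libraries of their lines. Leaving out both libraries gave 11422 genes and 65 of the wider pathway. Their choice rests on these same data, and the GC deviation of each other library is not given here. Between libraries of the same replicate number, deviations from the line's mean correlated at 0.44, -0.43 and -0.21 for numbers 1 to 3. These values were not adjusted for the GC trend, so they cannot settle whether the numbers pair the libraries. A replicate block gave 2324 genes, 3 members (without GAB1) and 18 of the wider pathway, and the block with GC offsets gave 6268, 5 and 42. HGF and MET were called in all 15 fits, SPINT1 in 13, GAB1 in 11 and SPINT2 in 3. The members were proposed from this same contrast, so nothing is read from their calls in any of these fits. F12 changed sign without PANC1OR replicate 3 (-0.37, in a range up to 1.27 without 1 library) and with both libraries left out (-0.13). Without the filter HGFAC was called at -4.24. The cause of these shifts was not tested. The 13 HGF reads in PANC1 and the 1 HGFAC read in PANC1OR limit those ratios.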

Other observations

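Ratios between members within a library do not depend on the library total. Per exon length, HGF stood at 0.107, 0.105 and 0.0918 of MET in PANC1OR replicates 1 to 3, against 0.000644, 0.000663 and 0.00302 in PANC1. SPINT2 exceeded SPINT1 by 70.7, 73.9 and 71.3 times in PANC1OR, against 124, 335 and 248 times in PANC1, so PANC1OR replicate 3 matched its group in this ratio although both genes were higher there. SPINT2 exceeded ST14 by 713 to 1746 times in PANC1OR and by 576 to 1512 times in PANC1, on at most 10 ST14 reads a library. Hepatocyte markers, read because HGFAC and HPN are liver genes, summed to 0.125 to 0.330 CPM in PANC1OR and 0.418 to 0.872 CPM in PANC1. TF made up most of the PANC1 sums, with 21 reads in PANC1 and 3 in PANC1OR. APOA1 went the other way, with 2 reads in PANC1 and 5 in PANC1OR, and none of these markers was tested. Of 7 leukocyte markers CD14 rose in PANC1OR, CD3E had 0 reads in both lines and PTPRC was at 0.294 CPM in PANC1OR and 0.0411 CPM in PANC1. The 5 endothelial markers summed to 0.0826 to 0.312 CPM in PANC1OR and 0.187 to 0.627 CPM in PANC1.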
